A study of Mus musculus with 48 samples.

Results

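Lymphoma in the lymph node (LN) surrounds every stromal cell type at once, and the question here was which genes moved together in its main sorted populations: fibroblastic reticular cells (FRCs), the endothelium of blood vessels (BECs), the endothelium of lymphatics (LECs), and double-negative (DN) cells, which lack both gp38 (podoplanin) and CD31. The comparison took all 48 array strips of the series, that is, 24 replicates with 2 strips each, and set 12 tumor replicates against 12 naive replicates with the cell type as a block. Genes of cell division were counted but not described, so that the account is of what else moved. Tumor mice had been given 200000 to 400000 Eμ-Myc lymphoma B cells intravenously and carried a tumor load of 4% to 10% of LN lymphocytes, and naive mice were the controls. In this transplant model the Myc transgene sits in the injected B cells under an immunoglobulin enhancer, and the stroma is that of the host. The paper used here credits these arrays to an earlier study. By its own methods, mice were on a C57BL/6N background, of both sexes with groups matched for sex, and 8 to 12 weeks old. The paper does not state this for the mice of the arrays separately. Skin-draining LNs were digested with enzymes, depleted of leukocytes with CD45 beads and sorted on CD45, Ter119, gp38, CD31 and a dead cell dye to a purity given as over 95%. Each array carried 80 ng of RNA combined from 4 to 6 sorts, and each of the 8 groups held 3 replicates.

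FRCs build the conduit network and feed lymphocytes with chemokines and survival factors, BECs form the capillaries and the high endothelial venules through which lymphocytes enter, LECs line the sinuses, and DN cells include pericyte-like cells. All these cells carry immediate early genes, whose transcription starts within minutes of a growth signal, stress or handling of the tissue, and a circadian clock, in which activators of the BMAL1 and CLOCK type drive their own repressors through E-box sequences. Cells that grow raise the making of ribosomes, the spliceosome, the proteasome and mitochondrial and sterol enzymes, many of which are known targets of MYC.

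The labels carry limits that bear on every value below. Each cell type was read on a slide of its own, so the block for cell type is also a block for slide. On every slide the naive replicates took the first 3 places and the tumor replicates the last 3, so place on the slide and state cannot be told apart. The replicates are called biological, but no label says that they came from separate animals, so p-values measure only the spread between these samples, which may be technical. In bulk samples like these, fewer cells of a type and less RNA per cell cannot be told apart. The word Endothel stands in the titles of all 4 cell types, but the markers followed the cell type that each title names. Pdpn, which encodes gp38, averaged a log2 signal of 14.75 in tumor and 14.41 in naive FRCs, and 14.12 in tumor and 14.20 in naive LECs. In BECs it averaged 9.95 in tumor and 8.82 in naive mice.

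A few libraries stood apart. Naive DN replicate 2 had a Pdpn signal of 13.43, against 10.56 and 9.75 in the other naive DN replicates. Tumor DN cells had a Pecam1 signal (the gene of CD31) of 10.763, against 7.499 in naive DN cells, although the gate takes cells without CD31. Pdpn read 11.52 in tumor BEC replicate 2, against 8.12 and 10.20 in the other tumor BEC replicates. Leukocyte RNA was also present. The 13 tested genes of the pan-leukocyte markers were summarized for each replicate as their median log2 difference from the naive mean of the same cell type. This median was 0.40, 0.33 and 1.99 in tumor FRCs, 2.16, 3.26 and 0.19 in tumor BECs, 0.25, 1.51 and 0.49 in tumor LECs, and 4.82, 3.99 and 0.88 in tumor DN cells, and it lay between −0.22 and 0.22 in naive replicates. Tumor BEC and DN replicates 1 and 2, tumor FRC replicate 3 and tumor LEC replicate 2 were thus the 6 tumor replicates with most leukocyte signal, called leukocyte-rich below. Most of the counts that lead an account, but not all, are also given without them.

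Of 13341 genes tested, 1518 were higher in tumor mice (11.4% of all tested) and 1288 were lower (9.65%), by limma with Benjamini-Hochberg adjusted p under 0.05. Over all genes tested the median log2 difference was −0.04. The direction was shared by all 4 cell types in 1382 of the higher genes (10.4% of all tested) and in 1136 of the lower genes (8.52%). These were 91% of the higher and 88.2% of the lower genes. Over all tested genes, called or not, 34.1% had 1 sign in all 4 cell types. The call rests on the mean over the same 4 cell types and so favors a shared sign, and these shares do not test it. When genes were also required to lie above the background level of the arrays in each cell type and the genes of proliferation were set aside, 1085 higher and 1054 lower genes remained. Their differences were mostly modest: 145 of these higher genes exceeded 1 log2 unit, that is, a doubling, and 21 genes fell by more than that. Of 306 proliferation genes tested, 242 rose. Mitosis genes had a median log2 difference of 1.98 and DNA replication genes of 1.13, and they are not described further.

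A stricter reading is that no tumor replicate overlapped a naive replicate in any cell type. This held for 272 genes on the higher side (2.04% of all tested), of which 137 were outside the proliferation genes, and for 36 genes on the lower side (0.27%), none of them a proliferation gene. Each cell type taken alone called 1381 genes in FRCs, 667 in BECs, 120 in LECs and 967 in DN cells. In all 4 of these single contrasts 72 genes were called higher (0.54%), 8 of them outside the proliferation lists, and no gene was called lower (0%). These 8 were Aunip, Chtf18, Fignl1, Knstrn, Mns1, Nrm, Spag5 and Tyms-ps, chosen after their values were seen, and most of them are known from mitosis or DNA repair although the lists did not hold them. The size of the response differed between cell types for 168 genes (1.26%) in the moderated F test of the interaction, and for 1844 genes at an unadjusted p under 0.05. Only 25 of the 168 were also called in the blocked fit, and 14 of those had 1 sign in all 4 cell types. The 168 genes became 742 without naive DN replicate 2, 540 without tumor DN replicate 3, 285 without naive BEC replicate 2, and between 96 and 110 without naive FRC replicate 1, tumor FRC replicate 1, tumor FRC replicate 2 or tumor DN replicate 2.

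Leaving out single replicates kept the blocked counts between 1316 and 1713 higher and between 1008 and 1549 lower. Without the 6 leukocyte-rich replicates, an alternative chosen after seeing the data, 612 genes were higher and 308 lower, and 588 and 273 of them had the same call with all replicates. List counts given below without these replicates are to be read beside these 612 and 308 of 13341 genes. Without FRCs there were 834 higher and 487 lower genes, and without BECs 925 and 611.

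**Figure D1:**
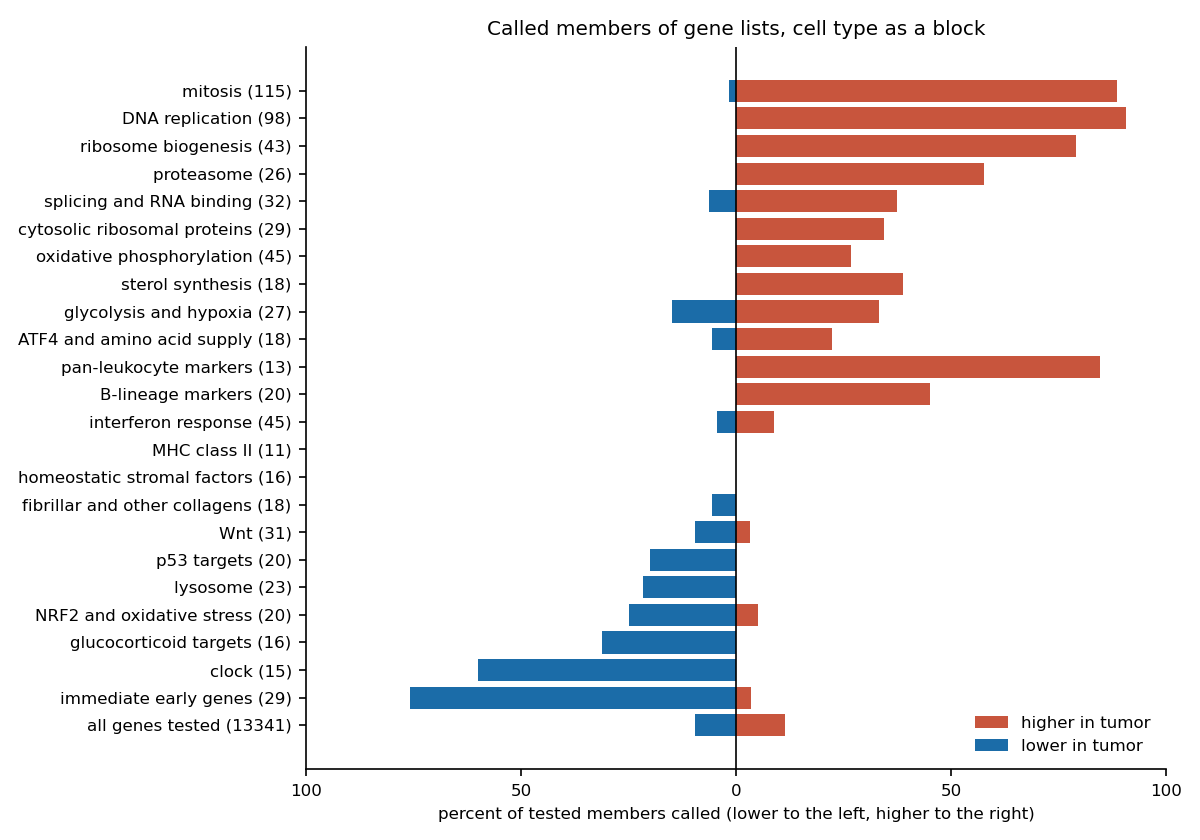
Share of the tested members of 23 gene lists and of all genes tested that were called higher (bars to the right) or lower (bars to the left) in tumor mice, in percent of tested members, with the number tested in brackets. Immediate early and clock genes lie on the lower side with 22 of 29 and 9 of 15 members, ribosome biogenesis and proteasome genes on the higher side with 34 of 43 and 15 of 26, and the bottom row shows all genes tested.

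Immediate early genes fell in all 4 cell types. Of 29 tested members 22 were lower, against 9.65% of all genes tested, and 1 was higher. Their median log2 difference was −0.55, against −0.04 over all genes, and was −0.58 in FRCs, −0.59 in BECs, −0.41 in LECs and −0.58 in DN cells. The median over the list, relative to the naive mean of the cell type, lay between −1.01 and −0.15 in the 12 tumor replicates and between −0.27 and 0.36 in the 12 naive replicates. Within each of the 4 cell types every tumor replicate lay below every naive replicate. The DN values lean in part on naive DN replicate 2. Without it the DN difference went from −0.69 to −0.48 for Egr2 and from −0.74 to −0.26 for Fosl2. For Egr3 and Zfp36 it turned to 0.126 and 0.095, whereas Nr4a2 kept −1.51 and Ier2 went from −1.08 to −1.62. The blocked fit without that replicate again called 22 members lower.

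The largest fall of the list was that of Nr4a2 (probe ILMN_1254547), an orphan nuclear receptor that is induced without a known ligand. Its log2 signal was 8.87, 8.93 and 8.55 in tumor FRCs, against 9.67, 9.13 and 10.48 in naive FRCs. In BECs it was 9.46, 9.09 and 10.54 in tumor mice, against 10.92, 11.21 and 11.37 in naive mice. In both cell types the tumor values lay below the naive ones, and in BECs tumor replicate 3 came nearest to them. LECs gave 9.33, 9.03 and 9.61 in tumor mice, against 10.64, 10.52 and 10.18 in naive mice. DN cells gave 9.12, 9.41 and 9.97 in tumor mice, against 10.67, 11.10 and 11.34 in naive mice. No tumor replicate overlapped a naive one in any cell type. The blocked log2 difference was −1.28 (SE 0.167, adjusted p = 1e-05), so that the naive level was 2.42 times the tumor level. The response did not pass the test for a difference between cell types (adjusted p = 0.86).

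Fosb (probe ILMN_2778279), a partner of the JUN proteins in the AP-1 factor, was bright and fell by 1.14 on the log2 scale (SE 0.152, adjusted p = 1.3e-05). Tumor FRCs read 12.88, 12.78 and 12.82, against 14.27, 14.53 and 14.46 in naive FRCs. Relative to the naive mean of each cell type, its tumor replicates lay between −2.09 and −0.40 with a median of −1.05, and its naive replicates between −0.39 and 0.48. All 12 tumor replicates thus lay below all 12 naive replicates. Fos, at log2 signals between 14.15 and 14.88 in tumor and between 14.69 and 15.13 in naive replicates, fell by 0.50 (SE 0.0797, adjusted p = 0.00013), and 11 of its 12 tumor replicates lay below all naive replicates relative to their naive means.

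Jund, Junb and Jun, the other AP-1 members, had blocked log2 differences of −0.72, −0.59 and −0.54, and Atf3, a stress-induced repressor, had −0.78. Among zinc finger factors, Egr2 had −0.87 (SE 0.142, adjusted p = 0.00016) and Klf4, which restrains endothelial and smooth muscle growth, had −0.95 (SE 0.165, adjusted p = 3e-04). In BECs the tumor replicates of Egr2 read 10.29, 10.09 and 11.58, against 11.77, 11.88 and 11.60 in naive BECs. Tumor BEC replicate 3, the one with least leukocyte signal in BECs, again lay closest to the naive values. Egr1, the best known of the family, had only −0.29 (SE 0.0677, adjusted p = 0.0037). Ppp1r15a, which lets a stressed cell resume translation, had −0.55 (adjusted p = 0.0021).

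Against the direction of the list, Ccn2, a matricellular gene driven by YAP and TGF-beta, was higher by 0.43 (adjusted p = 0.019), and Ier3, Ier5, Klf10, Btg2, Ccn1 and Myc did not pass the test. Myc had a log2 difference of −0.20 (adjusted p = 0.32), and the array does not separate host from transgene transcripts. With the leukocyte-rich replicates left out, 10 immediate early genes were called lower and Ccn2 was not called (log2 difference 0.30, adjusted p = 0.2), while the median of the list was −0.46. Nr4a2 (−0.89, adjusted p = 0.0035), Fosb (−1.05, adjusted p = 0.00093) and Egr2 (−0.57, adjusted p = 0.017) were still lower there.

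RefSeq promoter windows (build GRCm38.p6, 250 bases before to 50 after a start site) were matched for 19 of the 22 lower genes, and the 2 below are shown because each holds a textbook element of this gene class in capitals. A CRE, spelled TGACGTCA and searched on both strands, stands in 1.79% of all 32851 windows and in those of Ppp1r15a and Maff. The CArG box, the serum response element, stands in 1.63% of all windows and in those of Egr2 and Zfp36. The window of Egr2 is 1 of 5 for that gene and runs on the plus strand of chr10:67537316-67537615, with a CArG box in capitals. The window of Ppp1r15a runs on the minus strand of chr7:45526219-45526518, with a CRE in capitals. Most lower members held neither sequence in these windows, and a match only describes the letters.
Egr2: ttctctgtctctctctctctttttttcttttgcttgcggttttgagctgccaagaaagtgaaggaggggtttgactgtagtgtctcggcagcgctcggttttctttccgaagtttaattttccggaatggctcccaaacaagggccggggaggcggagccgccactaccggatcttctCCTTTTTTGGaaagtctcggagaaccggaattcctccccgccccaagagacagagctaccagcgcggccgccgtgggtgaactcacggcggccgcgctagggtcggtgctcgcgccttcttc
Ppp1r15a: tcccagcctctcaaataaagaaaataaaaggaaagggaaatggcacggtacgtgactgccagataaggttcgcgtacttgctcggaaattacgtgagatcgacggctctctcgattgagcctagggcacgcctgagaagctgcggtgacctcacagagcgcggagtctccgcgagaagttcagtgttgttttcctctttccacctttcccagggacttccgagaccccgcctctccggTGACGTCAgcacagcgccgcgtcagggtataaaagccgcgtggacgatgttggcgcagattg

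**Figure D2:**
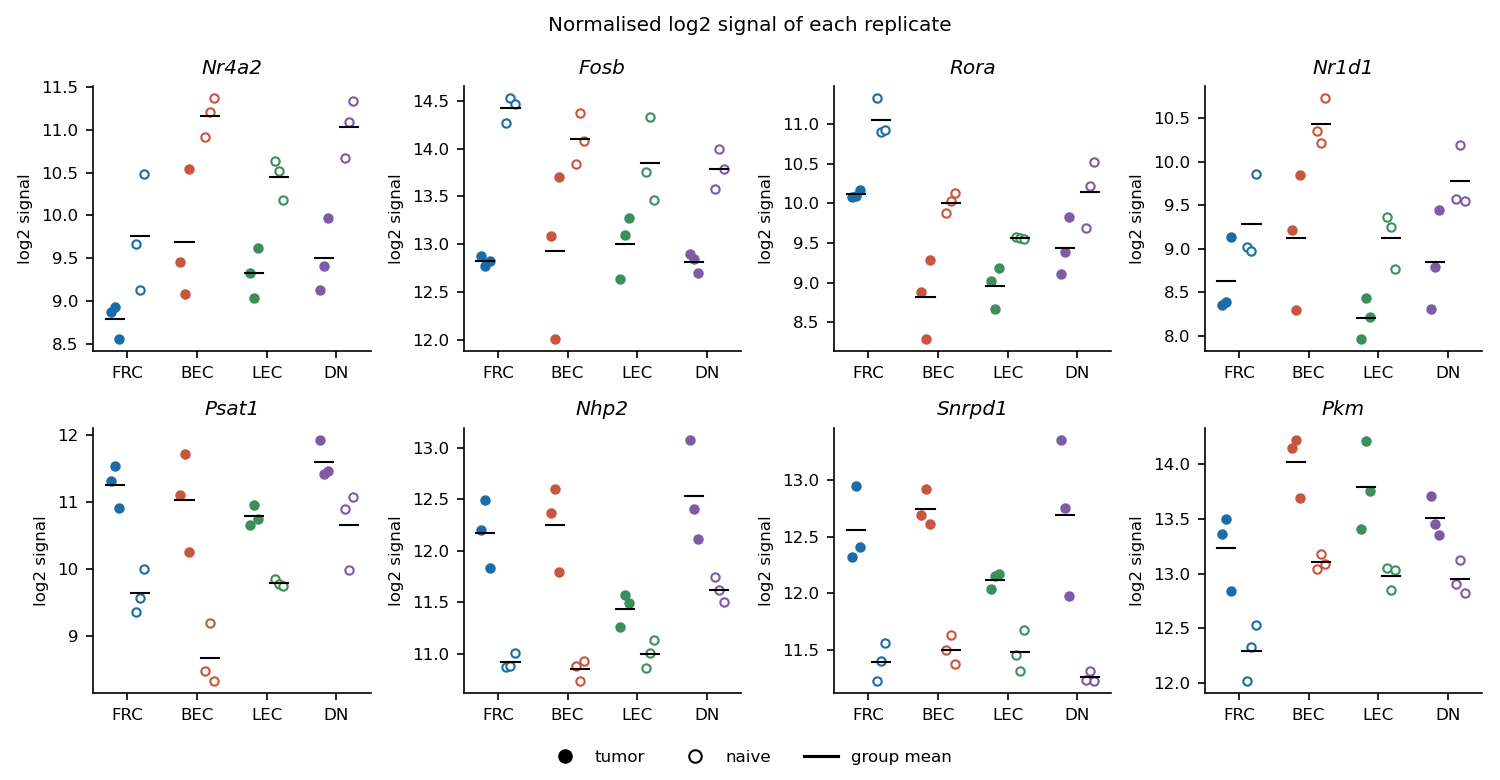
Normalized log2 signal of 8 genes in each replicate, by cell type, with tumor replicates as filled circles, naive replicates as open circles and group means (n = 3) as bars. Nr4a2 and Fosb (immediate early), Rora and Nr1d1 (clock) are lower in tumor mice, and Psat1 (serine synthesis), Nhp2 (ribosome biogenesis), Snrpd1 (splicing) and Pkm (glycolysis) are higher; all 12 tumor replicates of Psat1, Nhp2, Snrpd1 and Pkm lie above the naive replicates of their cell type.

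Clock genes were the other group that fell. Of 15 tested members 9 were lower, against 9.65% of all genes tested, 7 of them with 1 sign in all 4 cell types, and none was higher. All 15 had a negative difference, and the median was −0.54. The median over the list lay between −1.01 and −0.24 in tumor replicates and between −0.34 and 0.33 in naive replicates. The groups did not overlap in FRCs, BECs and LECs, while in DN cells naive replicate 1, at −0.34, lay within the tumor range of −0.46 to −0.32.

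Repressors of the clock were among its lower genes. Nr1d1 (probe ILMN_2749669), the heme-binding repressor REV-ERBα, read 9.22, 8.30 and 9.85 in tumor BECs, against 10.35, 10.21 and 10.73 in naive BECs. Its log2 signal was 7.96, 8.43 and 8.21 in tumor LECs, against 9.37, 9.25 and 8.77 in naive LECs. In both endothelial types the tumor replicates lay below the naive ones. In FRCs the values were 8.36, 8.39 and 9.13 in tumor mice, against 9.02, 8.97 and 9.86 in naive mice, and there the groups overlapped. The blocked difference was −0.95 (SE 0.174, adjusted p = 0.00049), and that of its paralog Nr1d2 was −0.72 (SE 0.103, adjusted p = 3.9e-05). Cry2, a repressor of the CLOCK complex, had −0.86 (SE 0.173, adjusted p = 0.0011).

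Rora (probe ILMN_1243741) encodes RORα, the activator that competes with REV-ERB for the same sites. Tumor FRCs read 10.09, 10.09 and 10.17, against 11.33, 10.91 and 10.93 in naive FRCs. Tumor BECs read 8.89, 8.29 and 9.29, against 9.88, 10.03 and 10.13 in naive BECs. In both the tumor values were lower in every replicate, and the blocked difference of Rora was −0.86 (SE 0.122, adjusted p = 3.1e-05). Activator and repressors of the clock thus had the same sign.

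The direct E-box outputs were less uniform. Dbp averaged a log2 difference of −0.95 (SE 0.29, adjusted p = 0.023), but this was −2.10 in BECs, −1.21 in LECs, −0.56 in FRCs and 0.06 in DN cells. Naive DN replicate 2 read 13.25, against 11.20 and 11.14 in the other naive DN replicates, and the interaction of Dbp did not pass its test (adjusted p = 0.34). Per2 had −0.73 (SE 0.214, adjusted p = 0.018) with −1.58 in BECs and −0.21 in FRCs, again without a call for the interaction (adjusted p = 0.46). Its DN difference was −0.36, and 0.099 without naive DN replicate 2. Tef, a relative of Dbp, had −0.62 (adjusted p = 0.0058), with −0.14 in DN cells, and 0.02 there without naive DN replicate 2. Arntl, which encodes BMAL1, had −0.08 (adjusted p = 0.72) and Clock had −0.22 (adjusted p = 0.15). The sources used here give no hour at which the LNs were taken. Only 4 clock genes were called lower without the leukocyte-rich replicates, with a list median of −0.46. Nr1d1 (−0.78, adjusted p = 0.0082), Nr1d2 (−0.53, adjusted p = 0.006), Rora (−0.64, adjusted p = 0.0054) and Cry2 (−0.76, adjusted p = 0.031) were these 4. Without BECs 5 were called.

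Promoter windows were found for 8 of the 9 lower clock genes. The E-box, spelled CACGTG and equal on both strands, stands in 7.15% of all windows and in 2 windows of Tef. The D-box, spelled TTATGNAA and searched on both strands, stands in 3.38% of all windows and in that of Per3. The Tef window below is shown for its E-box in capitals, the site type that the clock activators bind, and runs on the plus strand of chr15:81802423-81802722.
Tef: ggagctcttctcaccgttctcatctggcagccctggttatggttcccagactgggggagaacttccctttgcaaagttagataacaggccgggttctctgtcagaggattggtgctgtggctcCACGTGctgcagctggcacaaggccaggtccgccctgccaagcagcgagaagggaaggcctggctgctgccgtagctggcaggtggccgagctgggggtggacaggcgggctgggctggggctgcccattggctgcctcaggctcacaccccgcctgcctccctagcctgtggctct

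**Figure D3:**
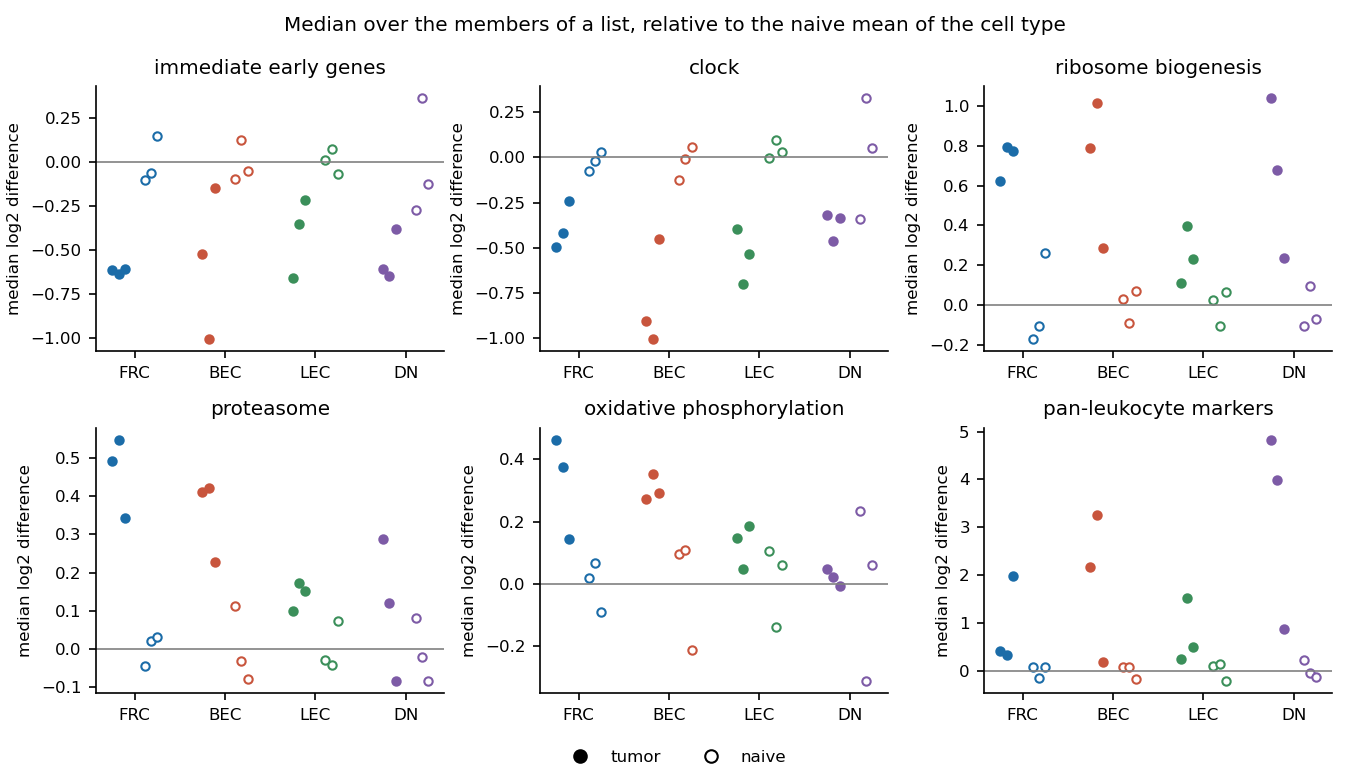
Median over the tested members of 6 gene lists in each replicate, as the log2 difference from the naive mean of its cell type, with tumor replicates filled and naive replicates open. Immediate early and clock genes lie below 0 in all 12 tumor replicates and ribosome biogenesis genes above 0 in all 12, while the pan-leukocyte markers range from 0.19 to 4.82 in tumor replicates.

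Some targets of the glucocorticoid receptor, which follow the daily and stress-driven rise of corticosterone, were lower. Of 16 tested members 5 were lower, against 9.65% of all genes tested, and none was higher, with a list median of −0.35 a median of −0.07 in FRCs and all 12 tumor replicates below 0 (−0.65 to −0.01, against −0.20 to 0.31 in naive replicates). Cdkn1c, an inhibitor of cyclin-dependent kinases, fell by 1.05 (SE 0.2, adjusted p = 0.00075), with −1.57 in FRCs, −1.48 in BECs, −0.89 in LECs and −0.24 in DN cells. Its DN difference was 0.008 without naive DN replicate 2. The interaction of Cdkn1c did not pass its test (adjusted p = 0.37). Klf9, a factor that both the receptor and the clock induce, had −0.60 (SE 0.122, adjusted p = 0.0013), and Dusp1, a phosphatase that switches off MAP kinases, had −0.37 (SE 0.0793, adjusted p = 0.0022). Fkbp5, the classic target, was not lower: its log2 difference was 0.41 (adjusted p = 0.13). Leaving out the leukocyte-rich replicates, 3 members were called lower, and neither Klf9 (−0.43, adjusted p = 0.051) nor Dusp1 (−0.24, adjusted p = 0.12) was among them.

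Ribosome biogenesis genes rose in all 4 cell types. Of 43 tested members 34 were higher, against 11.4% of all genes tested, and none was lower. The list median was 0.57 over all cell types, and lay between 0.11 and 1.04 in tumor replicates and between −0.17 and 0.26 in naive replicates. Every tumor replicate lay above every naive replicate of its own cell type, although the spans touched across cell types.

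Nhp2 (probe ILMN_2679077), a core protein of the box H/ACA particles that guide pseudouridine into ribosomal RNA, read 12.21, 12.49 and 11.83 in tumor FRCs, against 10.87, 10.88 and 11.01 in naive FRCs. In BECs it read 12.37, 12.60 and 11.80 in tumor mice, against 10.88, 10.73 and 10.93 in naive mice. LECs gave 11.26, 11.57 and 11.49 in tumor mice, against 10.86, 11.01 and 11.14 in naive mice. The tumor values of Nhp2 were higher in each replicate, with the smallest gap in LECs. DN cells read 13.08, 12.40 and 12.12 in tumor mice, against 11.75, 11.62 and 11.50 in naive mice. The blocked difference was 1.00 (SE 0.131, adjusted p = 9.9e-06), a 2.00-fold level, and no cell type had overlapping groups.

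Mybbp1a, a nucleolar MYB-binding protein, averaged 1.01 (SE 0.161, adjusted p = 0.00012), with 1.35 in FRCs and 0.36 in LECs. Nop56, of the particles that guide ribose methylation, averaged 0.84 (SE 0.128, adjusted p = 8e-05), and Heatr1, a factor of the small subunit processome, averaged 0.70 (SE 0.113, adjusted p = 0.00014). The 2 tumor replicates with the highest list medians were also rich in leukocyte signal: DN replicate 1 had 1.04 for ribosome biogenesis beside 4.82 for pan-leukocyte markers, and BEC replicate 2 had 1.01 beside 3.26. Tumor FRC replicates 1 and 2 had ribosome biogenesis medians of 0.62 and 0.79 beside pan-leukocyte markers of 0.40 and 0.33. After the leukocyte-rich replicates were left out, 11 members were called higher with a median of 0.38, Nhp2 (0.83, adjusted p = 0.0011) and Mybbp1a (0.79, adjusted p = 0.016) among them. Without FRCs 22 were called.

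Of the 34 higher genes 30 had a promoter window, and 7 of them held a CACGTG E-box, the sequence that MYC with MAX binds: Imp4, Nop2, Grwd1, Pno1, Mybbp1a, Nle1 and Wdr43. The E-box stood in 21.88% of their windows, against 7.15% of all windows, and also in 5 of 25 windows of the lower immediate early genes and 22.22% of those of the lower clock genes, and is given as a description. The window of Mybbp1a is shown with its E-box in capitals and runs on the plus strand of chr11:72441077-72441376.
Mybbp1a: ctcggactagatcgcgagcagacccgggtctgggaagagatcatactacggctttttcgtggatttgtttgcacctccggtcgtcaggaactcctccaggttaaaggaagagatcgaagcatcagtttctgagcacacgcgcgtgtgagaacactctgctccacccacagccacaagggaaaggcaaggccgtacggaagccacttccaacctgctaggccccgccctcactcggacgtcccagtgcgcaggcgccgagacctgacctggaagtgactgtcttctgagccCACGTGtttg

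Splicing factors were more often higher than lower. Of 32 tested members 12 were higher, against 11.4% of all genes tested, and 2 were lower, against 9.65%. The list median was 0.14, below the 0.305 of a list of housekeeping genes. The higher ones were led by Sm proteins, the ring on which spliceosomal RNAs are assembled. Snrpd1 (probe ILMN_2610105) read 12.32, 12.94 and 12.41 in tumor FRCs, against 11.22, 11.40 and 11.55 in naive FRCs. Its signal was 13.35, 12.76 and 11.97 in tumor DN cells, against 11.23, 11.31 and 11.22 in naive DN cells. The blocked difference of Snrpd1 was 1.12 (SE 0.128, adjusted p = 1.5e-06), and all 12 tumor replicates lay above all 12 naive replicates relative to their naive means. Snrpd2, Snrpd3 and Snrpf followed with 0.64, 0.67 and 0.76. Clk1, a kinase of splicing factors, was lower by 0.54 (adjusted p = 0.01). In the fit without the leukocyte-rich replicates 8 were called higher and none lower, with 0.93 for Snrpd1 (adjusted p = 9.7e-05).

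Genes of the proteasome, which degrades tagged proteins, leaned to higher values by small amounts. All 26 tested members had a positive difference. Of these 15 were called higher, against 11.4% of all genes tested, and none lower. The list median was 0.25, with 0.48 in FRCs and 0.08 in DN cells. Psmb3, a subunit of the core, averaged 0.43 (SE 0.0705, adjusted p = 0.00016) with 13.21, 13.36 and 12.98 in tumor FRCs, against 12.55, 12.68 and 12.82 in naive FRCs. All 12 tumor replicates of Psmb3 lay above all naive replicates relative to their naive means. Psmd14, the deubiquitinating subunit of the lid, averaged 0.67 (SE 0.114, adjusted p = 0.00025). The fit without the leukocyte-rich replicates called 10 members higher, with a median of 0.22. A list of housekeeping genes, with all replicates, had 5 of 11 tested members higher and none lower, with a median of 0.305. Whether small shifts of this size are particular to the proteasome was not tested.

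Respiratory chain genes showed a weaker shift of the same sign. Of 45 tested members of oxidative phosphorylation 12 were higher, against 11.4% of all genes tested, and none lower, with a list median of 0.21. Ndufa9 of complex I averaged 0.50 (SE 0.092, adjusted p = 0.00055) and Atp5o of the ATP synthase 0.40 (SE 0.0809, adjusted p = 0.0011). In DN cells the list medians of the 3 tumor replicates, −0.01 to 0.05, lay within the naive range of −0.31 to 0.23. Cytosolic ribosomal proteins were higher for 10 of 29 members, against the same 11.4% of all genes, with a median of 0.14. Rpl13a led them with 0.67 (SE 0.096, adjusted p = 3.4e-05). Both list medians lay below the 0.305 of the housekeeping genes, and whether such shifts are particular to these lists was not tested. When the leukocyte-rich replicates were left out, 4 of 45 respiratory genes and 1 of 29 ribosomal protein genes were called higher, with medians of 0.25 and 0.14. Of all 13341 genes 612 were higher in that fit, a share that the ribosomal protein genes did not exceed.

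Psat1, Phgdh, Shmt2 and Mthfd2, enzymes that make serine or pass on its carbon, were the 4 higher members of the list of ATF4 targets and amino acid supply, which had 18 tested members. Of all genes tested 11.4% were higher. Psat1 (probe ILMN_1221048), the aminotransferase of serine synthesis, read 11.32, 11.54 and 10.91 in tumor FRCs, against 9.37, 9.57 and 10.01 in naive FRCs. Its signal was 11.11, 11.73 and 10.25 in tumor BECs, against 8.48, 9.21 and 8.33 in naive BECs. In LECs it was 10.66, 10.96 and 10.75 in tumor mice, against 9.86, 9.78 and 9.76 in naive mice. All tumor values were higher than the naive values of the same cell type, DN cells included. The blocked difference of Psat1 was 1.478 (SE 0.195, adjusted p = 1.2e-05), a 2.79-fold level. Mthfd2 and Shmt2, mitochondrial enzymes of one-carbon metabolism, averaged 1.26 (SE 0.19, adjusted p = 7e-05) and 1.17 (SE 0.183, adjusted p = 0.00011).

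The rest of that list, named for ATF4, the factor of the amino acid response, did not follow. Its median was −0.02, and 1 member was lower, Atf4 itself, at −0.25 (adjusted p = 0.0074). Asns, which makes asparagine, had 0.23 (adjusted p = 0.41) and Trib3 had 0.08 (adjusted p = 0.74). Psat1 without the leukocyte-rich replicates was still higher, by 1.29 (adjusted p = 0.00046), as was Mthfd2, by 0.91 (adjusted p = 0.014).

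Several enzymes of glycolysis were higher. Of 27 tested members of the glycolysis and hypoxia list 9 were higher and 4 lower, against 11.4% and 9.65% of all genes tested. Pkm (probe ILMN_2756041), pyruvate kinase, read 14.15, 14.22 and 13.69 in tumor BECs, against 13.04, 13.18 and 13.09 in naive BECs, and 13.41, 14.21 and 13.76 in tumor LECs, against 13.05, 12.85 and 13.04 in naive LECs. Its blocked difference was 0.81 (SE 0.103, adjusted p = 6.7e-06) without overlap in any cell type. Pgk1 averaged 0.82 (SE 0.128, adjusted p = 9.9e-05), Pgam1 0.61 (SE 0.102, adjusted p = 0.00022) and Gapdh 0.58 (SE 0.129, adjusted p = 0.0027). The glucose transporter Slc2a1 (−0.07, adjusted p = 0.81) and the hypoxia targets Car9 (0.03, adjusted p = 0.91) and Vegfa (−0.27, adjusted p = 0.34) did not pass the test. Pfkfb4 was lower, by 0.52 (adjusted p = 0.0055). Without the leukocyte-rich replicates 3 members were higher and 1 lower, and Gapdh, often used as a reference gene, was not called (0.41, adjusted p = 0.15). Of all 13341 genes 612 were higher and 308 lower in that fit.

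Sterol synthesis had 7 of 18 tested members higher, against 11.4% of all genes tested, and none lower, with a median of 0.38. Fdps, which makes farnesyl diphosphate, read 12.68, 13.02 and 12.28 in tumor FRCs, against 11.11, 11.38 and 10.90 in naive FRCs, and 12.81, 12.51 and 11.85 in tumor DN cells, against 12.29, 11.64 and 11.93 in naive DN cells. The groups did not overlap in FRCs and overlapped in DN cells. Its blocked difference was 1.00 (SE 0.151, adjusted p = 6.7e-05), with 1.53 in FRCs and 0.43 in DN cells, and the interaction did not pass its test (adjusted p = 0.39). Mvd averaged 1.07 (SE 0.197, adjusted p = 0.00054). Lss averaged 1.03 (SE 0.253, adjusted p = 0.0058) but −0.10 in DN cells, so it is not a gene of 1 sign. Without the leukocyte-rich replicates, where 612 of 13341 genes were higher, 2 of 18 sterol genes were called higher, with a median of 0.29.

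The largest single rises outside the proliferation lists included genes of B cells and other leukocytes. Mzb1 (probe ILMN_2613601), a chaperone of the endoplasmic reticulum in B and plasma cells, read 14.32, 13.54 and 11.42 in tumor DN cells, against 6.57, 5.90 and 6.41 in naive DN cells. Tumor BECs read 12.36, 13.21 and 9.95, against 7.57, 7.34 and 7.34 in naive BECs. Tumor FRCs read 8.28, 7.82 and 10.17, against 6.09, 5.83 and 5.86 in naive FRCs. In each cell type the highest values of Mzb1 stood in the leukocyte-rich replicates. Its blocked difference was 4.30 (SE 0.494, adjusted p = 1.7e-06) and 2.89 (adjusted p = 2.5e-05) without the leukocyte-rich replicates. Vpreb3, of the pre-B cell receptor, was at least 10.1-fold higher on average over the 4 cell types, with naive FRCs and LECs, where no replicate exceeded the background level, set to that level. This average covers log2 differences of at least 1.10 in FRCs to 6.24 in DN cells. Pou2af1 (a B-cell coactivator) and Btk (the kinase of the B-cell receptor pathway) were at least 6.73-fold and 7.75-fold higher on the same average.

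Of 13 pan-leukocyte markers tested 11 were higher, with a list median of 1.64, and of 20 B-lineage markers 9 were higher, with a median of 0.54. Of all genes tested 11.4% were higher. The summed linear signal of the pan-leukocyte markers lay between 11387 and 85875 in tumor DN cells and between 6785 and 8224 in naive DN cells. In LECs the sums were 8924 to 12082 in tumor mice and 7270 to 8730 in naive mice. Coro1a, an actin regulator of leukocytes, read 14.27, 13.79 and 11.30 in tumor DN cells, against 9.85, 9.14 and 8.94 in naive DN cells. The probe of Ptprc, which encodes CD45, did not rise above the background level in any group, and Ms4a1 (CD20) averaged 6.69 in tumor DN cells and 5.62 in naive DN cells, just above that level of 5.57. The part of leukocyte RNA in the other rises was not tested beyond the counts given without the leukocyte-rich replicates.

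Slco4a1, an organic anion transporter, is an example outside the B-cell genes. It read 9.91, 11.95 and 7.00 in tumor BECs, against 6.10, 5.95 and 5.68 in naive BECs, and 8.02, 9.62 and 8.54 in tumor LECs, against 6.24, 5.85 and 6.00 in naive LECs. The groups did not overlap in any cell type, and in BECs, LECs and DN cells the leukocyte-rich replicates were the highest. Its blocked difference was 2.69 (SE 0.46, adjusted p = 0.00025), and 1.44 (adjusted p = 0.00031) without the leukocyte-rich replicates. Spag5, Fignl1, Knstrn and Mns1 were higher by 3.44, 3.20, 3.04 and 2.97, and the differences in single cell types ran from 2.50 to 3.77 over these 4 genes. They belong to the genes named above as called in each single contrast, most of which are known from mitosis or DNA repair. The proliferation lists thus do not hold every gene of cell division.

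**Figure D4:**
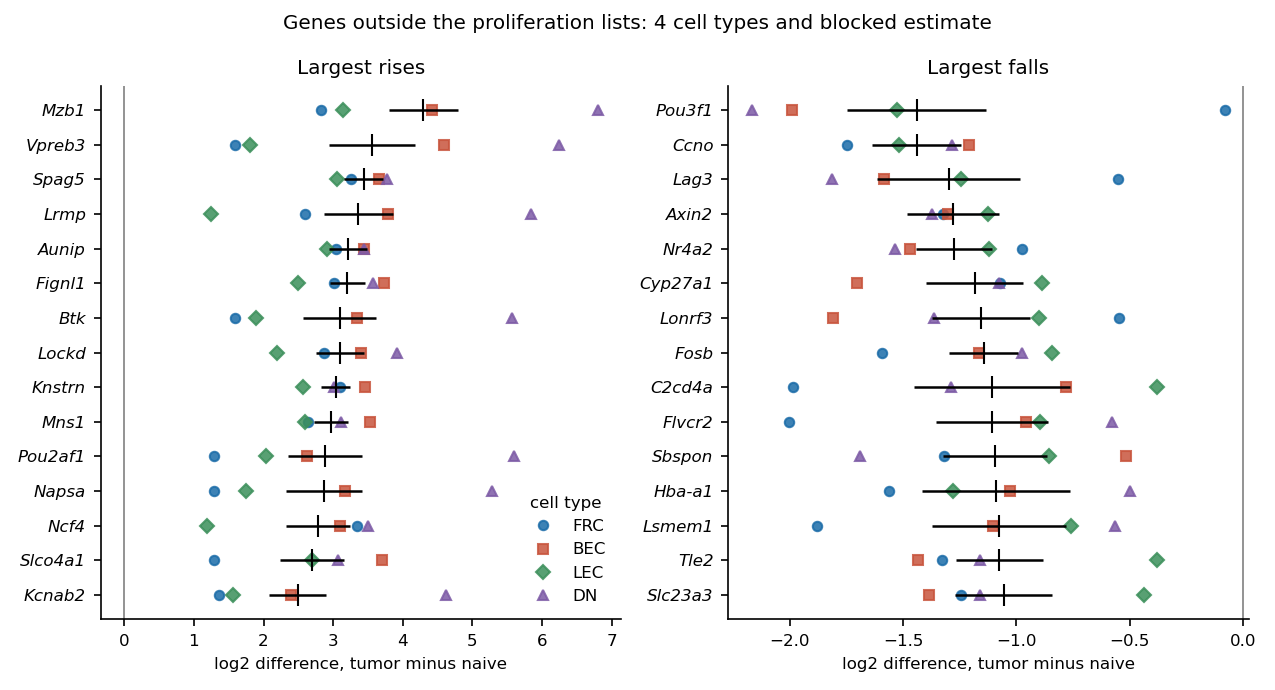
Log2 difference, tumor minus naive, of the 15 genes with the largest rises and the 15 with the largest falls outside the proliferation lists, in FRCs, BECs, LECs and DN cells (symbols), with the blocked estimate (tick) and its SE (line). Those lists do not hold every gene known from mitosis or DNA repair. B-cell genes such as Mzb1 and Vpreb3 differ widely between cell types with the highest values in DN cells (6.80 and 6.24), whereas Axin2 lies between −1.38 and −1.12 in all 4 (in DN cells −0.59 without naive DN replicate 2).

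The largest falls were smaller than the largest rises. Axin2, a feedback target of Wnt signalling, read 8.29, 8.35 and 8.78 in tumor FRCs, against 10.01, 9.93 and 9.46 in naive FRCs. Tumor LECs read 7.62, 7.23 and 7.77, against 8.49, 8.77 and 8.73 in naive LECs. In FRCs, BECs and LECs the groups did not overlap, and the 4 differences were −1.32 in FRCs, −1.30 in BECs, −1.12 in LECs and −1.38 in DN cells. Naive DN replicate 2 read 9.30, against 6.91 and 6.98 in the other naive DN replicates, and without it the DN difference was −0.59. The blocked difference was −1.28 (SE 0.202, adjusted p = 0.00011), and −1.11 (adjusted p = 3.8e-06) without that replicate. Of 31 tested members of the Wnt list 3 were lower and 1 higher, a share of lower genes near the 9.65% of all genes tested, with a list median of −0.25.

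Ccno, a cyclin-like gene known from multiciliated cells, had −1.44 (SE 0.197, adjusted p = 1.9e-05), with −1.75 in FRCs and −1.21 in BECs. Without the leukocyte-rich replicates Ccno was also lower, by 1.09 (adjusted p = 0.0019). Pou3f1 had the same blocked value of −1.44 but only −0.08 in FRCs, and in the fit without the leukocyte-rich replicates it had −1.12 (adjusted p = 0.055). Lag3 had −1.30 (SE 0.315, adjusted p = 0.0054) and Cyp27a1, a sterol hydroxylase, −1.18 (SE 0.215, adjusted p = 0.00045). The red cell gene Hba-a1, whose probe may also read its near-identical copy, had −1.09 (adjusted p = 0.021) and −0.66 (adjusted p = 0.38) without the leukocyte-rich replicates.

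Several regulators of transcription and of messenger RNA were among the 36 lower genes without overlap in any cell type. Kdm6b, a demethylase of a repressive histone mark, read 11.69, 11.65 and 12.03 in tumor BECs, against 12.78, 12.44 and 13.08 in naive BECs. All 12 tumor replicates lay below all naive replicates relative to their naive means, and the blocked difference was −0.90 (SE 0.142, adjusted p = 0.00012). Arid5a, an RNA-binding protein that stabilizes inflammatory transcripts, had −0.89 (SE 0.107, adjusted p = 3.6e-06). Tumor DN cells read 7.62, 7.64 and 7.52 for Arid5a, against 8.39, 9.21 and 8.67 in naive DN cells. Cpeb4 and Cpeb3, which bind the tails of messages, had −0.84 (SE 0.11, adjusted p = 1.1e-05) and −0.78 (SE 0.14, adjusted p = 0.00041). Tnrc6b, a partner of Argonaute in silencing by microRNAs, had −0.78 (SE 0.124, adjusted p = 0.00013), and Hexim1, an inhibitor of transcription elongation, had −0.79 (SE 0.14, adjusted p = 0.00036). Setbp1, Sertad1, Neo1 and Firre belonged to the same set, with −1.03, −0.84, −0.78 and −0.83.

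Genes for which LN stroma is known were mostly without a shared call when all replicates were used. Of the homeostatic factors, MHC class I, MHC class II and Notch lists no member was called in either direction out of 16, 16, 11 and 18 tested. Of all genes tested 11.4% were higher and 9.65% lower. All 11 MHC class II genes had a positive blocked difference, but their median changed sign between cell types. It was 2.04 in DN cells and 0.48 in FRCs, against −0.33 in BECs and −0.29 in LECs. Ccl19, the chemokine of the T zone, read 14.86, 14.64 and 15.46 in tumor FRCs, against 13.14, 13.50 and 14.63 in naive FRCs. Those groups did not overlap, by a narrow margin, but in DN cells naive replicate 2 read 13.20, above the 10.78, 10.62 and 12.06 of tumor DN cells, and the blocked difference of 0.88 (SE 0.406) did not pass (adjusted p = 0.13). Cxcl13, the follicular chemokine, had 1.32 (SE 0.511, adjusted p = 0.07). Without naive DN replicate 2 both were called higher, Ccl19 by 1.17 (adjusted p = 0.011) and Cxcl13 by 1.70 (adjusted p = 0.003), and without tumor BEC replicate 1 by 1.09 (adjusted p = 0.049) and 1.49 (adjusted p = 0.045). Ccl21a had −0.25 (adjusted p = 0.73), with −0.85 in BECs, and 0.05 (adjusted p = 0.93) without naive DN replicate 2. Glycam1, a mucin of high endothelial venules, had −0.19 (adjusted p = 0.68), with −0.51 in BECs. Icam1, Vcam1 and Ltbr had −0.15, −0.20 and 0.00, and Icam1 and Vcam1 had 0.03 and 0.12 without that replicate. For matrix genes the sign changed with the cell type: the median of fibrillar and other collagens was −0.75 in FRCs and 0.45 in BECs, and Col1a1 had −0.85 in FRCs and 1.72 in BECs with an interaction that did not pass (adjusted p = 0.37). The median of the FRC markers was also higher by 1.24 in tumor BECs, and the part of such markers in the collagen values was not tested.

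Inflammatory genes gave few shared calls. Timp1, an inhibitor of matrix metallopeptidases, averaged 0.80 (SE 0.167, adjusted p = 0.0016), and 0.69 (adjusted p = 0.049) without the leukocyte-rich replicates. Tnfrsf11b, the decoy receptor osteoprotegerin, averaged 0.97 (SE 0.256, adjusted p = 0.0098). Saa3, an acute phase protein, read 13.22, 13.81 and 10.93 in tumor FRCs, against 8.79, 9.20 and 8.59 in naive FRCs, while the DN groups overlapped at 6.15 to 7.01 in tumor mice and 5.39 to 8.55 in naive mice. Its blocked difference was 1.68 (SE 0.49, adjusted p = 0.018), with 3.79 in FRCs and 0.21 in DN cells (1.26 without naive DN replicate 2). Without the leukocyte-rich replicates the blocked difference was 1.92 (adjusted p = 0.06). Of 45 interferon response genes tested 4 were higher and 2 lower, below the 11.4% and 9.65% of all genes tested, with a median of 0.06. Irf1 and Gbp2, both targets of interferon gamma, were the lower ones, with −0.56 (adjusted p = 0.0045) and −0.52 (adjusted p = 0.012). Without naive DN replicate 2 the DN difference of Irf1 went from −0.33 to 0.05 and that of Gbp2 from −0.64 to −0.23. Both blocked calls held whichever single replicate was left out.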

How the data were processed

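Expression was read on Illumina bead arrays from 8 groups of 3 replicates (FRC, BEC, LEC and DN cells of tumor and naive mice), each on 2 strips, and samples were grouped by the labels for state and the titles for cell type. The authors' log2 values, as deposited, cover 45281 probes by 48 strips, with 122 empty cells. How they were summarized, background-corrected and normalized is not given in the sources used here. The authors also deposited intensity values for single beads, which carry no probe names. They served only to check the scale: all 48 strips held an intensity below 0, so background had been subtracted, and quantiles of the log2 values against log2 bead quantiles had slopes of 1.06 to 1.17.

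Strips were quantile normalized together, and both strips of each replicate were then averaged. Strips of a replicate correlated at 0.981 to 0.994. The background level, 5.57, was the mode (4.97) plus 3 robust SDs (0.202). Probes with 1 gene (34885, against 18 with several and 10378 with none, from the platform annotation) and at least 1 group mean above the level remained (21763). For the 5499 genes with several such probes the brightest was used. Differences were fitted with limma 3.58.1 under R 4.3.3 (tumor against naive with cell type as a block, two-sided, prior df 3.1), p-values were adjusted by Benjamini-Hochberg over 13341 genes, and the fit was tested on simulated data. The interaction and the single contrasts came from a model of 8 group means. Differences per replicate are relative to the naive mean of the cell type. The number of arrays limits the precision.

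The members and the 54 gene lists were chosen with earlier results of these data known. No set test was run. Named genes are the 15 largest rises and falls outside proliferation with 1 sign and a measured level in all 4 cell types. Up to 15 per direction without overlap were added. Each list outside proliferation gave up to 4 members by lowest adjusted p, called or not, and up to 2 called against the list. Genes the study names for stroma were also included. Other list members named with values, such as Jun, Dbp, Per2, Myc and Fkbp5, were added for their known roles after their values were seen. Alternatives changed normalization, filter, probe choice, strips, model, replicate number, and the replicates and cell types used. Promoter windows came from RefSeq (GRCm38.p6). Figures were drawn with matplotlib 3.10.9 under Python 3.11.15.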

Additional observations from a re-analysis of the deposited data

Results flagged for a closer look

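The response to tumor differed between cell types, by the moderated F test of the interaction in limma, for 8 of the named genes. For 4 of them, Bmp2, Postn, Col13a1 and Npas2, some of the groups compared averaged below the background level of 5.57, so that the difference between cell types rests in part on signal that was not measured and is not read as a result. Bmp2, a ligand of the BMP family (adjusted p = 0.0013), averaged above that level in naive LECs alone: it read 5.39, 5.30 and 5.76 in tumor LECs, against 7.30, 7.03 and 7.10 in naive LECs. Cd276, the checkpoint molecule B7-H3 (interaction adjusted p = 0.0025), was higher in tumor BECs by 2.97 and in tumor LECs by 1.65 but had −1.10 in FRCs and 0.07 in DN cells. Its BEC values were 10.90, 10.29 and 9.61 in tumor mice, against 6.90, 7.81 and 7.17 in naive mice.

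Col18a1, the precursor of endostatin (interaction adjusted p = 0.011), had −0.71 in FRCs and 1.24 in BECs, and Postn, a matricellular protein (adjusted p = 0.025), had −1.49 in FRCs, and no replicate of the other types exceeded the background level. Col13a1, a transmembrane collagen (adjusted p = 0.032), had −1.81 in BECs. It averaged 5.29 in tumor and 6.39 in naive FRCs, and no LEC or DN replicate exceeded the background level. Its blocked call (−0.69, adjusted p = 0.026) was lost (adjusted p = 0.05 after rounding) without naive FRC replicate 1 (−0.62) or naive BEC replicate 3 (−0.61). Madcam1, an addressin (adjusted p = 0.035), read 9.50, 9.87 and 8.98 in tumor FRCs, against 6.45, 7.10 and 8.21 in naive FRCs, a difference of 2.20, and had −0.84 in LECs.

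Npas2, a clock activator related to CLOCK (adjusted p = 0.04), had −1.52 in FRCs. It averaged 5.28 in tumor and 6.09 in naive DN cells, and no BEC or LEC replicate exceeded the background level. Icam2, an endothelial adhesion molecule (adjusted p = 0.044), had 3.63 in DN cells, with 11.34, 11.32 and 10.97 in tumor DN cells, against 7.63, 9.004 and 6.11 in naive DN cells, and between −0.04 and 0.64 in the other types. The BEC markers had a median difference of 2.50 in the same tumor DN cells, and their part in the value of Icam2 was not tested.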

How the results depend on the processing

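Over 24 fits that each left out 1 replicate, called genes with 1 sign numbered 1199 to 1540 higher and 916 to 1325 lower, immediate early genes called lower 20 to 23, clock genes 8 to 10, ribosome biogenesis genes 30 to 34 and pan-leukocyte markers 10 to 11. Genes whose response differed between cell types numbered 96 to 742 there, 83 when genes had to lie above the level in each cell type, 31 without FRCs, 78 without LECs and 383 without DN cells, and the cause was not tested. Without FRCs 834 genes were higher and 487 lower, with 22 ribosome biogenesis genes. Without BECs there were 925 and 611, with 5 clock genes. Without the 6 tumor replicates with most leukocyte signal, 612 were higher and 308 lower, 575 and 291 of them with 1 sign, and 10 immediate early, 4 clock, 11 ribosome biogenesis and 5 pan-leukocyte genes were called; that fit has fewer samples. There the difference of Cd86 turned to −0.00305, against 1.47 with all replicates. The all-gene median shifted by less than 0.1 under every scaling tried, and the higher share of called genes was 54.1%, 51.8% for values as deposited and 51.2% for median centring, but 66.5% without the 6 replicates, 65% for averages over cell types, 63.1% without FRCs and 60.2% without BECs.

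The rule that every pair's correlation exceed 0.1 was not met, so the main fit set no pairs. The labels do not say whether same-numbered samples shared mice or sorts, and these correlations cannot decide it. If cell types of 1 number did share mice, the 24 replicates are not independent. Deviations of same-numbered tumor and naive replicates correlated at −0.218 to 0.248 (median 0.034, 4 of 12 pairs over 0.1), with all 3 LEC pairs at 0.145 to 0.225, and across cell types at −0.23 to 0.604 (median 0.055, 13 of 36 over 0.1). With the number as a replicate block 1507 genes were higher and 1255 lower, with tumor and naive pairs as blocks 1293 and 969, and with a random block 1486 and 1242 (consensus correlation 0.0062). When the 4 cell types were averaged to 3 tumor and 3 naive values, 781 were higher and 420 lower, 712 and 354 with 1 sign, with 12 immediate early and 22 ribosome biogenesis genes; that test has fewer samples. Of 175 called named genes, the number block kept 173 calls, the pairs 157 and the averages 98. Signals under the background level of 5.57 limit what can be said of dim genes such as Bmp2, Postn, Col13a1 and Npas2.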

Other observations

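Most members of the lists for p53, for NRF2 and oxidative stress, and for the lysosome were not called. Of all genes tested 9.65% were lower and 11.4% higher. Of 20 tested p53 targets 4 were lower and none higher, with a median of −0.18 and all 12 tumor replicates below 0 (−0.44 to −0.01, against −0.25 to 0.32 in naive replicates). Cdkn1a, the p21 inhibitor of the cell cycle, had −0.72 (SE 0.185, adjusted p = 0.0082), with −0.81 in BECs, −0.97 in LECs and −0.998 in DN cells and −0.09 in FRCs. Without naive DN replicate 2, which stood apart, the DN difference was −0.45 and the blocked one −0.59 (adjusted p = 0.0066). Cdkn1a was not called without the 6 leukocyte-rich tumor replicates (−0.79, adjusted p = 0.074). Of 20 tested genes of the list for oxidative stress and NRF2, the regulator of antioxidant genes, 5 were lower and 1 was higher. Txnip, an inhibitor of thioredoxin that glucose induces, had −0.43 (SE 0.0828, adjusted p = 0.00072). Of 23 lysosome genes 5 were lower and none higher, with a median of −0.16. Gaa, the acid glucosidase of glycogen breakdown, had −0.50 (adjusted p = 0.00067). Without those replicates 1 p53 target, 1 gene of the NRF2 and oxidative stress list and 2 lysosome genes were called lower. Of all 13341 genes 308 were lower in that fit.

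Guidance, growth factor, chaperone and contractile genes gave a few calls, to be read beside 9.65% lower and 11.4% higher of all genes tested. Of 34 semaphorin, ephrin, slit and netrin genes 5 were lower and 1 was higher, and without the leukocyte-rich replicates 1 was lower and none higher. Sema3c, a secreted semaphorin, led with −0.91 (adjusted p = 0.0036). Of 14 genes of the IGF axis 4 were lower and none higher, among them Irs2, the adaptor of insulin and IGF receptors, with −0.79 (adjusted p = 0.002, and −0.75 with adjusted p = 0.056 without those replicates). The chaperone counts lay near those shares in both directions. Of 23 genes of cytosolic folding 4 were higher, among them Cct3 and Tcp1 of the chaperonin with 0.73 (adjusted p = 0.00014) and 0.41 (adjusted p = 0.0051), and 2 were lower, among them Dnaja1 with −0.38 (adjusted p = 0.012). Of 20 genes of the endoplasmic reticulum 1 was higher, Pdia4 with 0.41 (adjusted p = 0.0028), and 3 were lower, among them Dnajb9 with −0.59 (adjusted p = 0.00087). Of 19 contractile and pericyte genes 5 were higher and none lower, and Mcam, an adhesion molecule of pericytes and endothelium, led them with 1.39 (adjusted p = 0.0034).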
